A study of Saccharomyces cerevisiae with 17 samples.

Results

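Cells of BY4741, the haploid wild-type laboratory strain of mating type a used throughout the series, were compared after 60 min without phosphate and after 60 min with it. The comparison took 6 of the 17 libraries of the series: libraries 14, 16 and 17 at 0 mM phosphate and libraries 11, 10 and 13 at 7.2 mM, each chosen by its sample label. Features with at least 1 RPM (read counts scaled to a fixed library total, the authors' unit) in 3 or more of these 6 libraries were kept, which left 6015 of the 7125 in the table. Values of single libraries are given below in that order, 14, 16, 17 and then 11, 10, 13.

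The series examines how yeast cells switch phosphate genes on, and its other 11 libraries hold deletion strains and further BY4741 cultures. Libraries of the spl2 and bmh1 deletion strains entered the statistical fit used below, but only through its shared estimate of spread. All 6 cultures grew with 7.2 mM potassium phosphate, were washed, and were then kept for 60 min in medium with or without it. Leucine, histidine, methionine and uracil were supplied throughout. The medium without phosphate also lacked the potassium of the phosphate salt. Potassium chloride is named for both wash media, but for the final medium only where that held phosphate. BY4741 lacks LEU2, MET17 and URA3, and none of these genes had a read in any of the 6 libraries. Its further auxotrophic marker, HIS3, is known as a partial deletion in this strain, and stood at 175 to 207 RPM. The pheromone receptor gene STE2 of mating type a stood at 483 to 546 RPM, and the alpha pheromone gene MF(ALPHA)1 at no more than 0.565 RPM. Other genes of mating type alpha were not all near 0. HMLALPHA1 stood at no more than 0.301 RPM and STE3 at no more than 6.91 RPM. MF(ALPHA)2 had at least 6.07 RPM, and SAG1 had 36.3 to 41.7 RPM.

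Phosphate-starved yeast is best known for the PHO regulon, genes of phosphate uptake and recovery that the factor Pho4 switches on once the kinase Pho85 is held inactive. Phosphate, like nitrogen and carbon sources, is also read by the pathways of the kinases TORC1, PKA and Rim15. Under good supply TORC1 and PKA favour the synthesis of ribosomes and restrain stress genes, reserve carbohydrates and autophagy. The account below is of the genes outside the PHO regulon, and PHO84 serves only as a check of the treatment. PHO84, the high-affinity phosphate transporter, had 2200, 2183 and 2297 RPM at 0 mM, against 193, 197 and 189 RPM at 7.2 mM.

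Total depth of the 6 libraries was 22004872 to 33609600 reads, so that 3 reads correspond to 0.0893 to 0.136 RPM. The first principal component of the 6 libraries held 83.2% of the variance and separated the phosphate levels. The second held 7.22% and set library 17 of 0 mM and library 10 of 7.2 mM apart from the other 4. Replicate pairs that include library 10 or 17 differed by a mean chi-square per feature of 21.6 to 27.4, against 5.09 for libraries 14 and 16 and 3.90 for libraries 11 and 13. Ribosomal RNA features took 0.0525%, 0.0590% and 0.166% of reads at 0 mM, against 0.0332%, 0.0402% and 0.0359% at 7.2 mM, and their part in the results was not tested. Counts given below as without libraries 10 and 17 come from a fit that leaves both out. The measurements are shares of the RNA of a whole culture, so fewer cells with a transcript and less of it per cell cannot be told apart. The growth protocol lets one overnight culture seed a culture of each phosphate level, and shared parents were not taken into account.

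The class with the largest change in its share of reads, in percentage points, was that of ribosomal protein genes, which encode the structural proteins of the cytosolic ribosome. The 137 genes took 25.9%, 26.3% and 24.4% of all reads at 0 mM, against 33.2%, 30.1% and 33.3% at 7.2 mM. The groups did not overlap, and the mean share was 6.68 percentage points lower at 0 mM (two-sided exact permutation test, p = 0.1, the smallest that 3 against 3 libraries allow). Ribosomal protein genes carried 73.8% of all RPM lost by the features that were lower. Since RPM values of a library add up to a fixed total, this loss alone raises every other feature by 0.14 on the log2 scale. Each change was therefore measured on 2 scales, RPM and RPM divided by the share of reads outside ribosomal protein genes, here called the non-ribosomal scale.

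On the RPM scale 3666 of 6015 features were higher at 0 mM (60.9%) and 402 lower (6.68%) by limma at an adjusted p under 0.05, and on the non-ribosomal scale 1786 were higher (29.7%) and 782 lower (13.0%). After TMM scaling, which balances the bulk of features, the split was 1088 higher and 1226 lower. All 1786 features higher on the non-ribosomal scale were also called higher in RPM, and all 402 called lower in RPM were also lower on the non-ribosomal scale. In what follows "rose" and "fell" are used of features that passed on both of these scales, so that 29.7% rising and 6.68% falling is the background for every list. The median log2 fold change of all features, on log2(RPM + 1), was 0.21 in RPM and 0.08 on the non-ribosomal scale, and list medians are to be read against 0.21. Fold changes and their adjusted p-values are those of RPM unless stated.

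**Figure D1:**
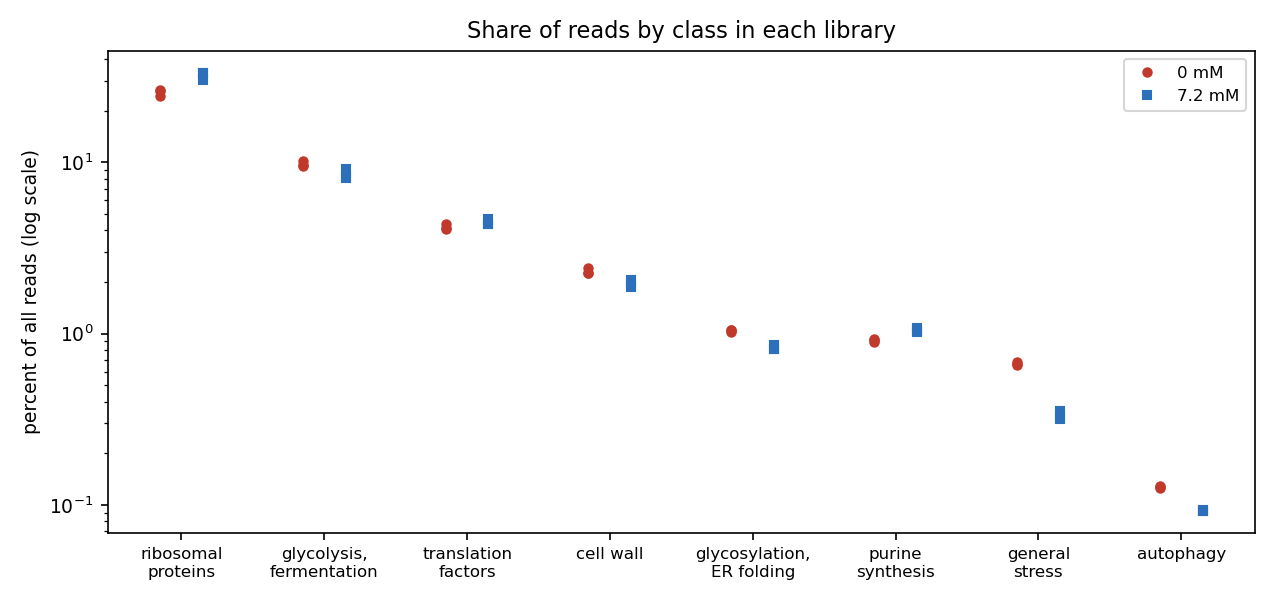
Percent of all reads (y axis, log scale) taken by 8 classes of genes in each library, circles for the 3 libraries at 0 mM and squares for the 3 at 7.2 mM. Ribosomal proteins lie at 24.4% to 26.3% at 0 mM, all below the 30.1% to 33.3% at 7.2 mM, while the general stress class lies higher at 0 mM.

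The shift depended on level. With ribosomal protein genes left out, the median log2 fold change in RPM was 0.29 for the 899 features at 10 to 30 RPM and 0.23 for the 2862 at 30 to 100 RPM. It was 0.14 for the 1099 features at 100 to 300 RPM, 0.02 for the 299 at 300 to 1000 RPM and 0.02 for the 67 at 1000 RPM and over. On the non-ribosomal scale 46.2% of the features at 300 to 1000 RPM were lower and 16.7% higher, against 4.34% and 41.0% of those at 10 to 30 RPM. At lower levels the share of calls was smaller, with 28.0% higher on the non-ribosomal scale at 3 to 10 RPM and 15.4% below 3 RPM, where the median in RPM was 0.25 and 0.21. Changes of at least 1.5-fold were far more often upward, with 305 features that rose and 21 that fell by that much.

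**Figure D2:**
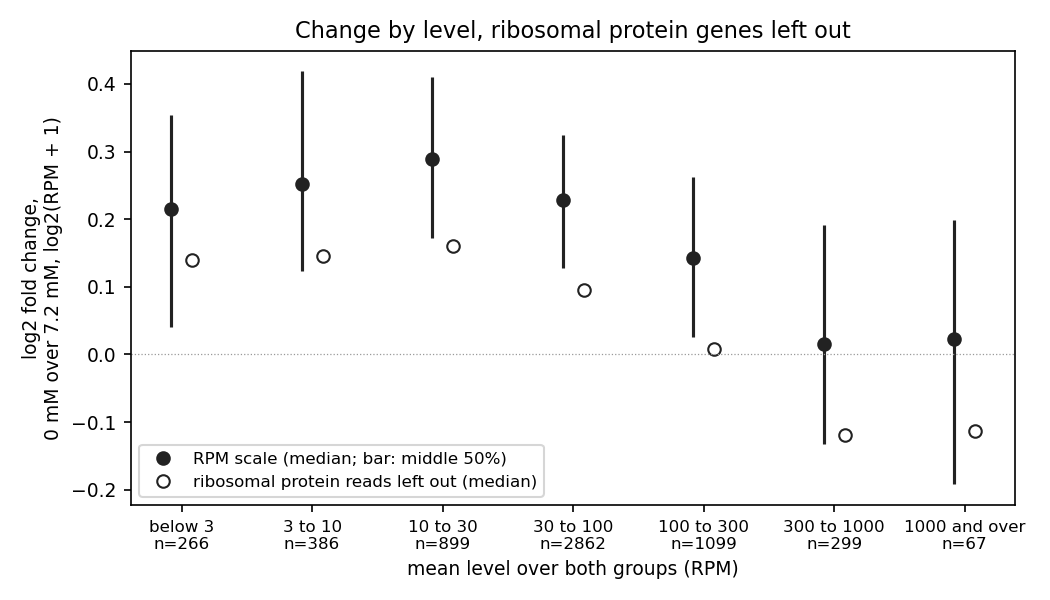
Median log2 fold change, 0 mM over 7.2 mM on log2(RPM + 1) (y axis), of features grouped by mean RPM (x axis, with the number of features); filled circles show the RPM scale with bars over the middle 50% of features, open circles the non-ribosomal scale. The medians lie at 0.29 at 10 to 30 RPM and at 0.02 above 300 RPM.

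Genes of the general stress response, which the factors Msn2 and Msn4 switch on through the element AGGGG, rose almost as a body. Of 46 tested members 44 rose and none fell, with a median log2 fold change of 0.89 against 0.21 for all features, and 43 passed as higher after TMM scaling. HSP12, which encodes a small membrane-protecting protein, had 810, 705 and 933 RPM at 0 mM, against 222, 229 and 179 RPM at 7.2 mM. Its log2 fold change was 1.95 ± 0.10 (SE; limma adjusted p = 6.08e-10). GAD1, glutamate decarboxylase, had 116, 120 and 126 RPM at 0 mM, against 43.4, 50.5 and 43.6 RPM at 7.2 mM, a change of 1.38 ± 0.06. The lowest library at 0 mM exceeded the highest at 7.2 mM for both genes. TKL2, a minor transketolase gene, was the list's exception, with a log2 fold change of -0.08 that passed as lower on the non-ribosomal scale only.

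On none of the lists, GTO3, an omega-class glutathione transferase gene, changed by 2.36 ± 0.07 and DDR48, a DNA-damage-responsive gene, by 1.71 ± 0.07 (SE; limma adjusted p = 2.99e-13 and 2.07e-11). GTO3 stood at 30.6, 29.9 and 29.6 RPM at 0 mM, against 4.93, 5.28 and 4.95 RPM at 7.2 mM, with no overlap. The heat shock list rose in 11 of 27 members and fell in none, but its median of 0.25 is near the 0.21 of all features. HSP31, HSP26 and HSP42, chaperone genes tied to stress and stationary phase, rose by 1.20, 1.16 and 1.10. The housekeeping chaperones HSC82, SSA2 and SSC1 had 0.10, 0.12 and 0.16, which did not pass in RPM. HSP82 and SSA1, paralogues of HSC82 and SSA2, rose by 0.68 and 0.73. Of the further SSA genes SSA4 rose by 0.56, whereas SSA3 had 0.25 and did not pass on the non-ribosomal scale. The ratio of SSA3 to SSA2 overlapped between the groups.

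Reserve carbohydrate genes rose in 15 of 20 members and fell in none, with a median of 0.52, and took 0.228%, 0.252% and 0.229% of reads at 0 mM, against 0.146%, 0.170% and 0.149% at 7.2 mM. The trehalose synthase subunit genes TPS2 and TPS1 rose by 0.81 and 0.67, and TSL1 by 0.86 on the non-ribosomal scale. TSL1 stood at 207, 247 and 202 RPM at 0 mM, against 96.4, 129 and 103 RPM at 7.2 mM. Genes that break these stores down rose along with those that build them. The glycogen phosphorylase gene GPH1 rose by 0.98, the debranching enzyme gene GDB1 by 0.78 and the trehalase genes NTH2 and NTH1 by 0.62 and 0.54, next to the branching enzyme gene GLC3 at 0.59 and the glycogen synthase gene GSY2 at 0.44. PGM2, a phosphoglucomutase that links both stores to glycolysis, rose most, by 1.25 ± 0.08 (SE; limma adjusted p = 7.85e-09).

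The 500 bases before the start codon were searched on both strands in the RefSeq R64 sequence for 5699 tested coding genes. AGGGG or its reverse complement stood in 34.3% of all of them and in 171 of the 267 genes outside the PHO regulon that rose at least 1.5-fold. The general stress list held it in 46 of 46 and the reserve carbohydrate list in 16 of 20. The general stress list was chosen as genes of Msn2 and Msn4, with earlier results of these data known. Its share of the element is therefore no separate support. Its members outside the PHO regulon that rose at least 1.5-fold are also among the 267. Over all genes outside the PHO regulon the median log2 fold change was 0.20 with no copy, 0.22 with 1, 0.28 with 2 and 0.34 with 3 or more. The general stress list, of which 34 of 46 promoters held 2 or more copies, was left in apart from any PHO genes. Medians without that list were not computed. The element GATGAG, known as PAC, which marks ribosome biogenesis promoters, stood in 1598 of the 5699 promoters (28.0%) and in 70 of 76 of that list. It also stood in 5 of 9 arginine, 6 of 10 lysine and 9 of 19 purine synthesis promoters. Medians over all genes outside the PHO regulon were lower with more copies of PAC, at 0.23 with none and at 0.19, 0.11 and 0.03 with 1, 2 and 3 or more. These lists were left in, and medians without them were not computed. TGACTC, the core of the element read by Gcn4, the activator of amino acid synthesis genes, stood in 12.8% of all and in 9 of 9 arginine synthesis promoters. Among other lists with genes that fell, lysine synthesis held TGACTC in 4 of 10 promoters and purine synthesis in 10 of 19. Stretches of 4 promoters outside any annotated gene are printed to show these letters in genes at either end of the response, with each motif, in either orientation, in capitals.
HSP12, AGGGG, chrVI:106998-107097, + strand: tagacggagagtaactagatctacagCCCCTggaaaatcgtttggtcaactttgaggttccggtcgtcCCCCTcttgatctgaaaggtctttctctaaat
PGM2, AGGGG, chrXIII:477815-477914, - strand: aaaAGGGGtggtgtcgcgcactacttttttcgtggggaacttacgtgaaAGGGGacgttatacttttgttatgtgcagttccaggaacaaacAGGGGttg
ARG3, TGACTC, chrX:268451-268550, + strand: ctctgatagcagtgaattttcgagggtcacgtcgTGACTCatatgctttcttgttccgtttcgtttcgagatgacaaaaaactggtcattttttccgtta
MRT4, GATGAG, chrXI:426037-426136, + strand: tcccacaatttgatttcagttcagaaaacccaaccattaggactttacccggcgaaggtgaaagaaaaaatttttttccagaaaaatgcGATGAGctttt
HSP12 and PGM2 rose, and ARG3, an arginine synthesis gene, and MRT4, a ribosome assembly gene, fell. A match of letters is a description of the window, and factor binding was not measured.

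**Figure D3:**
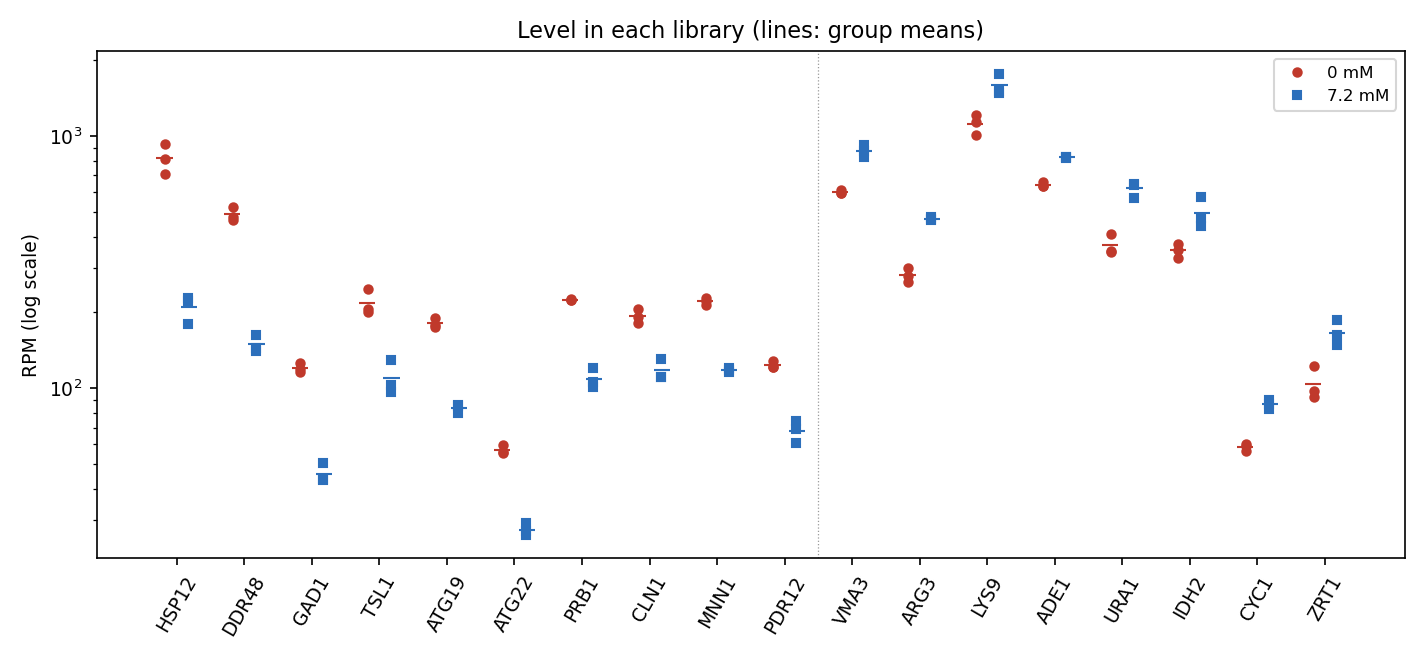
RPM in each library (y axis, log scale) of 18 genes, circles for 0 mM and squares for 7.2 mM, with lines at the group means; the 10 genes left of the dotted line rose and the 8 to its right fell. The groups are separate for every gene shown.

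Autophagy genes, which build the vesicles that carry cell material to the vacuole, rose in 21 of 32 members and fell in 1, with a median of 0.42. ATG19, the receptor of the cytoplasm-to-vacuole pathway, stood at 190, 179 and 176 RPM at 0 mM, against 85.4, 86.1 and 79.9 RPM at 7.2 mM, a change of 1.11 ± 0.05 (SE; limma adjusted p = 1.13e-10). ATG22, a vacuolar amino acid exporter, stood at 59.8, 55.4 and 55.7 RPM at 0 mM, against 29.3, 26.2 and 27.1 RPM at 7.2 mM. The libraries of each phosphate level were close to each other, and the 2 levels were far apart. ATG34, a paralogue of ATG19, rose by 0.76, and ATG8, whose product coats the autophagosome, by 0.52. ATG27 was the member that fell, by 0.16, while ATG1, the kinase that starts the process, had 0.27, which passed in RPM only.

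Enzymes of the vacuole moved the same way, with 12 of 15 rising, none falling and a median of 0.41. The protease gene PRB1 stood at 226, 224 and 224 RPM at 0 mM, against 106, 121 and 102 RPM at 7.2 mM, a change of 1.03 ± 0.07 (SE; limma adjusted p = 8.63e-09). The mannosidase gene AMS1 and the aminopeptidase gene APE1, whose products are the cargo that Atg19 carries, rose by 0.96 and 0.80. The protease genes PEP4 and PRC1 rose by 0.49 and 0.41, and PPN1, a polyphosphatase, by 0.38. PBI2, an inhibitor of the Prb1 protease, rose as well, by 0.66. PHO8, the vacuolar alkaline phosphatase, is on this list and on the PHO list and changed by 1.31.

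The proton pump of the same organelle went the other way in part. Of 19 V-ATPase genes none rose, 5 fell and 9 were lower on the non-ribosomal scale. The 3 genes of the ring of proteolipid subunits in the membrane led the list, VMA3 with -0.54 ± 0.07, VMA16 with -0.38 ± 0.06 and VMA11 with -0.32 ± 0.06 (SE; limma adjusted p = 1.12e-05, 8.08e-05 and 0.000326). VMA3 stood at 596, 596 and 610 RPM at 0 mM, against 918, 825 and 871 RPM at 7.2 mM. The catalytic head subunits VMA1 and VMA2 had 0.14 and 0.17, which passed as higher in RPM only. PKR1, an assembly factor, and VMA8, a stalk subunit, also fell, by 0.30 and 0.20.

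Signalling genes that respond to nutrients rose in 21 of 44 members, and none fell on both scales. GTR1, a GTPase that conveys amino acid supply to TORC1, stood at 114, 115 and 117 RPM at 0 mM, against 68.2, 65.9 and 69.7 RPM at 7.2 mM, a change of 0.76 ± 0.05 (SE; limma adjusted p = 1.2e-08). Among PKA genes the catalytic subunit TPK2 rose by 0.56 and the regulatory subunit BCY1 by 0.47, while TPK3 had 0.20 and passed in RPM only. The phosphodiesterase gene PDE1 rose by 0.48 and PDE2 had 0.19. RIM15, MSN2 and GIS1, which act in the entry into quiescence, rose by 0.38, 0.41 and 0.43. TOR1, TOR2 and SCH9 had 0.17, 0.15 and 0.21, near the median of all features, and did not pass on the non-ribosomal scale.

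Genes for making ribosomes split by step. Of 76 ribosome biogenesis genes 12 fell and 1 rose, 48 were lower on the non-ribosomal scale, and 69 were lower after TMM scaling. These changes were small, with a median of -0.05 and extremes of -0.30 for MRT4 and 0.43 for UTP21, a subunit of the small-subunit processome. UTP21 stood at 161, 150 and 166 RPM at 0 mM, against 110, 126 and 117 RPM at 7.2 mM, opposite to the 12 members that fell. Of 29 genes of RNA polymerases I and III, 5 rose and 3 fell, and 11 were lower on the non-ribosomal scale. The polymerase I subunits RPA12 and RPA14 fell by 0.31 each, whereas the polymerase III initiation factor genes TFC3, BDP1, TFC4 and BRF1 rose by 0.33, 0.32, 0.30 and 0.28. After TMM scaling 1 gene of this list, MAF1, was higher and 17 were lower. MAF1, the repressor of polymerase III, stood at 111, 112 and 116 RPM at 0 mM, against 60.5, 63.5 and 62.9 RPM at 7.2 mM, a change of 0.85 ± 0.06 (SE; limma adjusted p = 3.05e-08). Of 38 translation factor genes 7 fell and 2 rose, and 23 were lower on the non-ribosomal scale. STM1, a ribosome-bound preservation factor, and CDC33, the cap-binding protein, fell by 0.40 and 0.24. Aminoacyl-tRNA synthetase genes had a median of -0.0044, with 0 of 19 that fell, 12 lower on the non-ribosomal scale and SES1, for serine, at 0.25 as the member that rose.

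**Figure D4:**
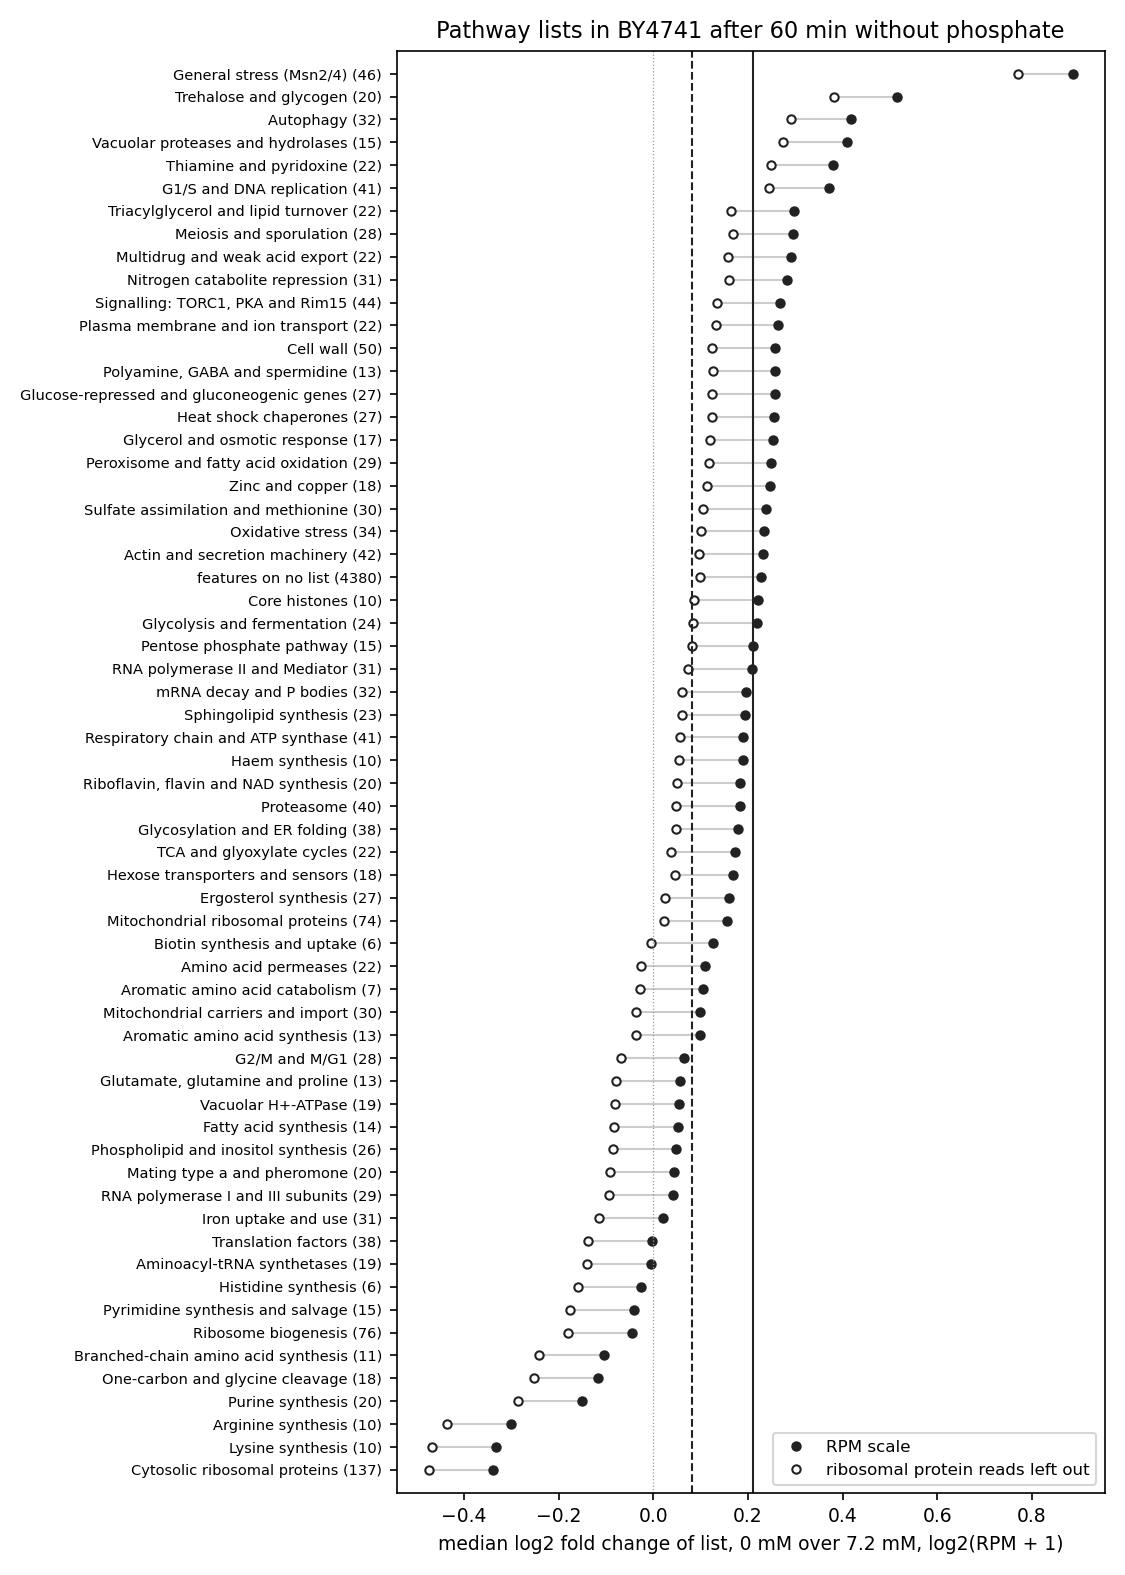
Median log2 fold change of each gene list, 0 mM over 7.2 mM on log2(RPM + 1) (x axis), for 61 lists and for features on no list, with the number of tested members in brackets; filled circles show RPM and open circles the non-ribosomal scale. Solid and dashed vertical lines mark the medians of all 6015 features at 0.21 and 0.08, and general stress lies furthest right, ribosomal proteins, lysine and arginine synthesis furthest left.

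Biosynthetic pathways of amino acids fell selectively. Lysine synthesis fell in 6 of 10 members, with a median of -0.33, and arginine synthesis in 6 of 10, with a median of -0.30. LYS9, which makes saccharopine, stood at 1013, 1134 and 1212 RPM at 0 mM, against 1484, 1766 and 1514 RPM at 7.2 mM, a change of -0.50 ± 0.08 (SE; limma adjusted p = 7.39e-05). ARG3, ornithine carbamoyltransferase, stood at 263, 280 and 301 RPM at 0 mM, against 478, 469 and 466 RPM at 7.2 mM, a change of -0.74 ± 0.06 (SE; limma adjusted p = 2.26e-07). ARG8, CPA1 and ARG5,6, all of ornithine or carbamoyl phosphate synthesis, fell by 0.61, 0.58 and 0.55, whereas ARG2 and ARG7 had 0.14 and 0.01 and did not pass. CAR2, which degrades ornithine, rose by 0.70, whereas the arginase gene CAR1 fell by 0.24. The labels name neither amino acid among the supplements of the medium.

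Other amino acid pathways moved less. Branched-chain synthesis fell in 3 of 11 genes, BAT2 most at -0.41, with 7 lower on the non-ribosomal scale. Histidine synthesis fell in 1 of 6 and aromatic synthesis in 1 of 13. GCN4, the activator gene shared by these pathways, had -0.03 and passed as lower on the non-ribosomal scale only, which says nothing of its protein, whose amount is known to be set by translation. Methionine genes divided, since the sulfite reductase subunit gene MET5 rose by 0.81 and MET14 by 0.49, whereas MET6, methionine synthase, fell by 0.38. Of the amino acid permease genes DIP5, for acidic amino acids, fell by 0.45 and GAP1, the general permease under nitrogen control, rose by 0.45. Genes under nitrogen catabolite repression rose in 14 of 31 members, among them PUT1 at 0.71 and CAR2, and fell in 2.

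Nucleotide synthesis genes were also lower in part. Of 20 purine genes 12 fell and none rose, 16 were lower on the non-ribosomal scale, and the median was -0.15. ADE1 stood at 632, 636 and 657 RPM at 0 mM, against 822, 824 and 823 RPM at 7.2 mM, a change of -0.36 ± 0.04 (SE; limma adjusted p = 1.02e-05). ADE4, which catalyses the first committed step, and ADE13 fell by 0.32 and 0.31. One-carbon genes, which feed purine synthesis, fell in 9 of 18 members and rose in 1, with SHM2, the cytosolic serine hydroxymethyltransferase, at -0.45 and the glycine cleavage genes GCV3 and GCV2 at -0.39 and -0.34. Pyrimidine genes fell in 5 of 15 members and rose in 2. URA1 stood at 411, 346 and 350 RPM at 0 mM, against 571, 641 and 649 RPM at 7.2 mM, and URA4 fell by 0.68. URA10, a minor orotate phosphoribosyltransferase, rose by 0.55, and PPR1, the activator of URA1 and URA4, by 0.32. The strain lacks URA3, and uracil was supplied in both groups.

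Central carbon metabolism showed opposite movements within single pathways. In the citric acid cycle list 8 of 22 genes rose and 7 fell, against 4 higher and 9 lower after TMM scaling. Those that fell include the early steps, IDH2 at -0.48 ± 0.08, IDH1 at -0.41 ± 0.07 and ACO1 at -0.32 ± 0.08 (SE; limma adjusted p = 9.94e-05, 0.000146 and 0.0038). IDH2 stood at 330, 353 and 374 RPM at 0 mM, against 441, 572 and 474 RPM at 7.2 mM, with library 10 the highest. Genes of later steps rose, with KGD1, KGD2, LSC2 and MDH1 at 0.34, 0.36, 0.40 and 0.50 and the succinate dehydrogenase genes SDH1, SDH2 and SDH4 at 0.49, 0.53 and 0.46. CIT2, the glyoxylate cycle citrate synthase, fell by 0.27, although its libraries overlapped.

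The respiratory list rose in 12 of 41 members and fell in 2, but after TMM scaling 9 were higher and 8 lower. CYC1, the main cytochrome c gene, stood at 59.1, 60.0 and 56.4 RPM at 0 mM, against 89.9, 83.2 and 86.8 RPM at 7.2 mM, a change of -0.56 ± 0.06 (SE; limma adjusted p = 1.33e-06). NDE1, an external NADH dehydrogenase, fell by 0.52, and NDI1, the internal one, rose by 0.52. Heme synthesis rose in 4 of 10 genes and fell in none, HEM13 and HEM14 by 0.60 and 0.52.

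Glycolytic genes took 9.60%, 9.56% and 10.1% of reads at 0 mM, against 8.29%, 9.13% and 8.09% at 7.2 mM, groups that did not overlap. The ratio of mean shares was 1.15, against 1.10 for all features outside ribosomal proteins, so most of this gain is shared with them. Within the list 12 of 24 genes rose and 1 fell, and after TMM scaling 7 were higher and 2 lower. The list's median of 0.22 is near the 0.21 of all features. The main isoforms ENO2, at 0.06, and TDH3, at 0.18, did not pass on both scales. ENO1 and TDH1, the minor enolase and glyceraldehyde phosphate dehydrogenase genes, rose by 1.52 and 1.95. CDC19, pyruvate kinase, rose by 0.35, with 7133, 7075 and 7267 RPM at 0 mM, against 5497, 6000 and 5344 RPM at 7.2 mM. The hexokinase HXK2 fell by 0.24, while its partners HXK1 and GLK1, which glucose represses, rose by 0.87 and 0.88 on the non-ribosomal scale.

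Such exchanges between isozymes were examined in 61 pairs, as the log2 ratio of one gene to the other within each library, a measure that no scaling alters. The ratios of 0 mM and 7.2 mM did not overlap in 49 of them. Of all features, 70.7% had RPM values that did not overlap between the groups, but RPM carries the general upward shift and a ratio does not. No such share was computed for ratios of other gene pairs, so the count of 49 is not read as a result about isozymes. TDH1 gained on TDH3 by 1.78 and ENO1 on ENO2 by 1.46, differences of mean log2 ratios. The log2 ratio of TDH1 to TDH3 in RPM, not adjusted for length, was -5.63, -5.91 and -5.70 at 0 mM, against -7.48, -7.49 and -7.62 at 7.2 mM. SOL4 gained on SOL3 by 1.45 in the pentose phosphate pathway, TSA2 on TSA1 by 1.36 among peroxiredoxins, and PGM2 on PGM1 by 1.09. CYC7, the second cytochrome c gene, gained on CYC1 by 1.07 and the transporter gene HXT1 on HXT3 by 1.01. Pairs also moved the other way, with SER33 gaining on SER3 by 1.18 in serine synthesis, SAM2 on SAM1 by 0.94 in S-adenosylmethionine synthesis and MDH1 on MDH2 by 0.76.

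**Figure D5:**
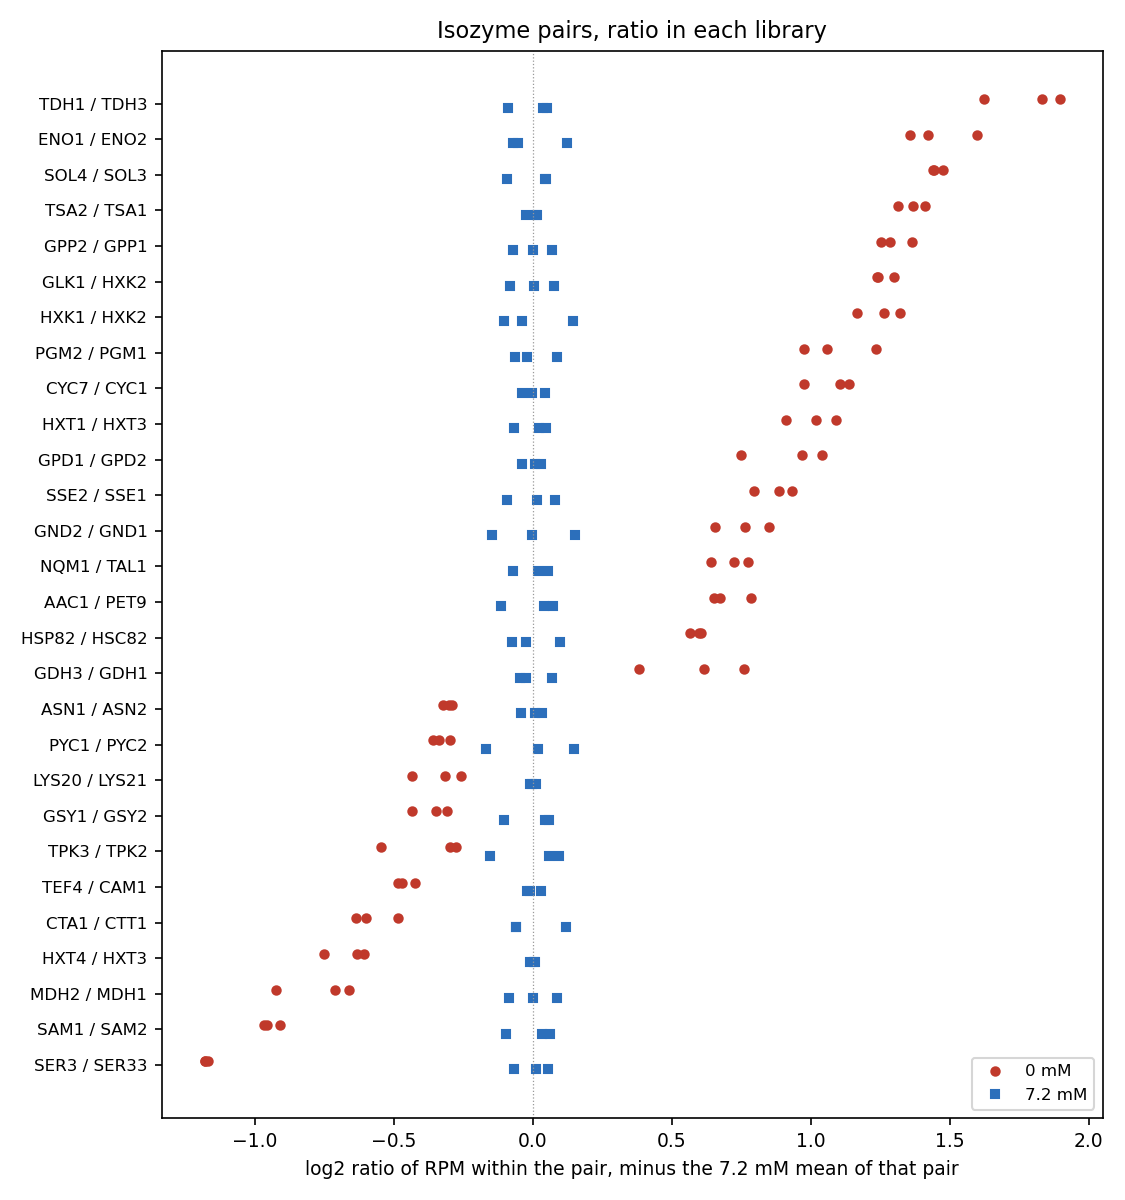
Log2 ratio of RPM within isozyme pairs in each library, minus the mean of that pair at 7.2 mM (x axis), circles for 0 mM and squares for 7.2 mM; pairs are named first gene over second. The circles lie apart from the squares in each pair drawn, up to 1.78 for TDH1 over TDH3.

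Cell cycle genes differed by phase. Genes of the G1/S transition, which commit a cell to division and copy its DNA, rose in 29 of 41 members and fell in none, with a median of 0.37. After TMM scaling 23 of them were higher and 5 lower. The G1 cyclin gene CLN1 stood at 182, 192 and 206 RPM at 0 mM, against 111, 131 and 111 RPM at 7.2 mM, a change of 0.71 ± 0.08 (SE; limma adjusted p = 3.7e-06). CLN2 rose by 0.50, the Pho85 cyclin gene PCL1 by 0.63 and the ribonucleotide reductase gene RNR1 by 0.52. The licensing genes MCM3, MCM5, MCM6, MCM7 and CDC6, by contrast, had 0.04 to 0.12 and did not pass. Of 28 genes of G2/M and M/G1 7 rose and 3 fell, and after TMM scaling 4 were higher and 14 lower. Of 10 histone genes the linker histone HHO1, at 0.53, and the variant HTZ1, at 0.28, rose.

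Genes of the cell surface and of the secretory pathway rose in part. Glycosylation and ER folding genes rose in 17 of 38 members and fell in none, with a median of 0.18, below that of all features, and 13 higher and 6 lower after TMM scaling. They took 1.05%, 1.02% and 1.04% of reads at 0 mM, against 0.818%, 0.856% and 0.813% at 7.2 mM. MNN1, a Golgi mannosyltransferase, stood at 221, 214 and 228 RPM at 0 mM, against 116, 121 and 118 RPM at 7.2 mM, a change of 0.90 ± 0.06 (SE; limma adjusted p = 7.12e-09). KRE2, HAC1, which switches on the unfolded protein response, and KAR2, the main ER chaperone, rose by 0.60, 0.58 and 0.49. Cell wall genes rose in 22 of 50 members and fell in 4, with a median of 0.26, near the 0.21 of all features. After TMM scaling 15 were higher and 7 lower. The glucanase gene EXG1, the protease gene YPS1 and the wall protein gene SED1 rose by 0.81, 0.69 and 0.58, and the glucan synthase genes GSC2 and FKS1 by 0.56 and 0.48. SUR1, a subunit of mannosyl inositol phosphoceramide synthase, rose by 1.05, with 63.9, 60.1 and 65.0 RPM at 0 mM, against 27.7, 32.3 and 30.0 RPM at 7.2 mM.

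Genes of lipid turnover and of phospholipid synthesis differed. Turnover rose in 13 of 22 genes and fell in none, although 3 were lower on the non-ribosomal scale. Those that rose include the phospholipase genes PLB2 and PLB3 at 0.89 and 0.87, next to the PHO-list genes GDE1 and GIT1, which are on this list too. PLB2 stood at 129, 117 and 121 RPM at 0 mM, against 68.1, 64.3 and 63.6 RPM at 7.2 mM. Of 26 genes of phospholipid and inositol synthesis 4 rose and 5 fell, CHO1 and OPI3 by 0.32 each, whereas PAH1, the phosphatidate phosphatase, rose by 0.39. Among exporters of polyamines and weak acids, TPO2 and PDR12 rose by 1.11 and 0.86.

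Metal genes moved apart. Of 31 iron genes 10 fell and 2 rose. The siderophore transporter gene SIT1 stood at 34.1, 31.4 and 33.4 RPM at 0 mM, against 54.9, 65.5 and 62.9 RPM at 7.2 mM, and FTR1, the iron permease, fell by 0.59, but ARN1, ARN2, FIT2 and FRE2 of the same list did not pass in RPM. CCC1, which stores iron in the vacuole, rose by 0.28. ZRT1, the high-affinity zinc transporter, fell by 0.67 while ZAP1, its activator, rose by 0.60. ZRT1 stood at 122, 92.1 and 97.5 RPM at 0 mM, against 186, 149 and 163 RPM at 7.2 mM. The magnesium transporter gene ALR1 and the calcium pump gene PMC1 rose by 0.51 and 0.49. RIB4, of riboflavin synthesis, had the lowest value of all, -0.91, while RIB1, RIB2, RIB3, RIB5 and RIB7 had 0.06 to 0.24, none lower. Thiamine and pyridoxine genes rose in 13 of 22 and fell in none, with THI4 at 0.72 and SNO2 at 0.69, both below 20 RPM.

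For several lists the direction depended on the scale. Mitochondrial ribosomal protein genes rose in 7 of 74 members on both scales and 44 passed as higher in RPM, but after TMM scaling 0 were higher and 7 lower. Proteasome genes rose in 7 of 40, UBI4, for polyubiquitin, most at 0.63, whereas after TMM scaling 1 was higher and 9 lower. Ergosterol genes gave 6 that rose and 1 that fell, against 3 higher and 8 lower after TMM scaling, and actin and secretion genes 14 and 2, against 1 and 6. RNA polymerase II and Mediator genes rose in 4 of 31 members and had a median of 0.21, that of all features.

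Without libraries 10 and 17, 43 general stress, 15 reserve carbohydrate, 19 autophagy, 10 vacuolar enzyme and 24 G1/S genes were higher on the non-ribosomal scale. In that fit 130 ribosomal protein, 55 ribosome biogenesis, 15 purine, 9 arginine and 7 lysine genes were lower.

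Neighbours of PHO genes on the chromosome were examined last. Of 40 tested neighbours of 22 PHO-list genes that rose, 7 were higher by at least 1.5-fold (17.5%), against 5.17% of all features, while their median of 0.19 was close to the 0.21 of all. ARO9, an aromatic aminotransferase gene that shares its upstream region with SPL2, changed by 2.79, and IRC15, which overlaps the end of CTF19 by 27 bases, by 1.91. KRE29, whose end lies 3 bases from that of PHM8, changed by 0.99. ATG34, described above with the autophagy genes, lies 382 bases downstream of PHM7 on the same strand, and DIG2 faces PHO8. The library kit keeps strand, per the labels, but the sources used here do not say whether counting used it, so reads of overlapping transcripts from the 2 strands cannot be told apart.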

How the data were processed

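RNA was made into stranded libraries with a TruSeq kit and sequenced on an Illumina HiSeq instrument, per the labels' protocols. The deposited table holds RPM per feature, scaled by the authors to each library's total. Aligner, counter and genome build: not given in the sources used here. Whole read counts behind the deposited values were recovered for 100% of values at a tolerance of 0.001, and edgeR called 3658 features higher and 395 lower on them in RPM scaling.

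Of the 7125 features, 6015 with at least 1 RPM in 3 of the 6 libraries were tested with limma 3.58.1 (R 4.3.3, trended prior) on log2(RPM + 1). The 12 libraries of the first experiment entered 1 fit of group means with 7 residual degrees of freedom, and p-values were adjusted by Benjamini-Hochberg over all tested features. These are the 6 libraries compared here, those of the spl2 deletion at both phosphate levels and that of the bmh1 deletion with phosphate. A second fit used RPM divided by the share of reads outside ribosomal protein genes. Shares of reads were compared by exact permutation over libraries. Alternatives included TMM scaling, edgeR 4.0.16, DESeq2 1.42.0, other filters and pseudocounts, and leaving out libraries. The code was tested on simulated data.

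The members and the 62 gene lists were chosen with earlier results of these data known, and 2 listed names were not matched. Named by rule were the 15 highest and 15 lowest genes outside the PHO list, up to 4 genes per list with the largest change, the 10 largest gains and losses in RPM, PHO84 and SPL2, and isozyme pairs that did not overlap; other genes named were chosen after their values were seen. Whether replicates came from separate overnight cultures is not stated, so p-values measure the spread between these libraries, which may be technical. Of the features, 6211 matched RefSeq R64 annotation, the source of promoter sequences and gene positions.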

Additional observations from a re-analysis of the deposited data

How the results depend on the processing

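The numbers of features called higher and lower depended on scaling. TMM scaling gave 1088 higher and 1226 lower, scaling to the median feature 844 and 1496, and DESeq2 on whole reads 989 and 1199. These replace both the 3666 and 402 of the RPM scale and the 1786 and 782 of the non-ribosomal scale, since each sets its own scale; the median log2 fold change was then 0.0073, -0.031 and 0.0060. The other alternatives, which were a fit of the 6 libraries alone, pseudocounts of 0.25 and 5, no filter, a filter of 10 RPM and edgeR, kept all 4 counts within 1.5 times. Leaving out 1 library gave 3219 to 3626 higher and 332 to 385 lower in RPM, and 1351 to 1633 higher and 634 to 807 lower on the non-ribosomal scale. Leaving out libraries 10 and 17 together, chosen after seeing the data, gave 3420 and 381 in RPM and 1479 and 767 on the non-ribosomal scale. Genes named by rule, other than those named only as part of an isozyme pair, did not reverse under these alternatives. The alternatives were not run gene by gene for genes named only through isozyme pairs, nor for the other genes in the text. Of 508 calls of the genes that were rerun, over both scales, 70 were lost with TMM, 88 with the median feature, 76 with DESeq2, 1 with edgeR and 15 without libraries 10 and 17. No paired analysis was possible because each library carries a number of its own. Depth of 22004872 reads or more limits features near 1 RPM most.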

Other observations

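Of 17 genes of glycerol metabolism and the osmotic response 6 rose and 1 fell, near the share of all features. GPP2, a glycerol phosphatase gene that is also on the PHO list, stood at 368, 329 and 366 RPM at 0 mM, against 138, 130 and 126 RPM at 7.2 mM, a rise of 1.43 ± 0.06 on the log2 scale (SE; adjusted p = 1.49e-11 by limma). GPD1, the glycerol phosphate dehydrogenase gene known from osmotic stress, rose by 0.66, while its isozyme gene GPD2 fell by 0.26. Of 29 peroxisome and fatty acid oxidation genes 11 rose and none fell, SPS19 and ECI1, auxiliary enzymes for unsaturated fatty acids, by 0.72 and 0.55; the list's median of 0.25 is near the 0.21 of all features, and after TMM scaling 5 were higher and 4 lower.

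Hexose transporter genes moved in both directions. HXT4 averaged 26.8 RPM at 0 mM, against 49.6 RPM at 7.2 mM, and fell by 0.86, and HXT2 and HXT3 fell by 0.36 and 0.22. HXT1 and HXT5 rose by 0.78 each. In the mating list none of 20 genes rose and 3 fell, ASG7 by 0.50, AGA2 by 0.29 and STE6 by 0.15, the last with overlapping libraries. Biotin genes divided, as the transporter gene VHT1 and the synthase gene BIO2 fell by 0.38 and 0.30 and BIO5 rose by 0.36.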
